A study of Mus musculus with 6 samples.

Results

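The red cell membrane and its skeleton were followed through 8 genes, *Slc4a1*, *Sptb*, *Ank1*, *Epb41*, *Epb42*, *Rhag*, *Rhd* and *Kel*, chosen by gene name. Of these 8, 6 carried a named feature among the 48733 named genes of the RNA-seq tables, while *Epb41* and *Rhag* had none. Values with the same name were summed within each library. All libraries were of the Collaborative Cross strain CC016/GeniUnc, with 3 libraries labelled bone and 3 labelled osteoblasts. By the methods both kinds came from 3 mice, and the labels do not say which number is which mouse. The bone libraries are labelled as femoral cortex without its marrow. Osteoblasts were grown from the stromal cells of that marrow, which are isolated by adherence to plastic, and were kept for 8 days in medium that held dexamethasone at 10 nM, ascorbic acid at 50 µg/ml and beta-glycerophosphate at 10 mM. The labels give no age, edited gene or other treatment, and no sort of the cultured cells is described.

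Red cells travel through narrow capillaries, and their shape and stability come from a spectrin network bound to the inner face of the membrane. The anion exchanger band 3 is anchored to that network through ankyrin, and the Rh proteins and the Kell blood group protein sit in or near the same complexes. These genes are switched on as erythroid precursors mature in the marrow, and inherited loss of several of them causes hereditary spherocytosis. Bone cells are not known for making them, although related genes of the same families are active in most tissues.

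The libraries were first checked for blood transcripts, because the products of these genes are known from the red cell membrane. *Hbb-bt*, an adult beta globin gene, was listed at 7.05, 3.58 and 34838 FPKM (fragments scaled to transcript length and to the aligned reads of the library) in the libraries labelled bone replicates 1, 2 and 3. It was listed at 3.43, 34268 and 48650 FPKM in those labelled osteoblasts replicates 1, 2 and 3. The feature also spans the neighbouring RefSeq genes *Hbb-bs*, *Gm15115* and *Hbb-bh3*. *Hbb-bt* was therefore above 1000 FPKM in 1 bone and 2 osteoblast libraries, and the blood signal did not follow the labels. Libraries are named by their labels throughout, and whether a label is wrong was not tested, so every difference of osteoblasts from bone rests on labels that these values go across. Summed FPKM of the 7 of 11 erythroid markers with a name ran from 23.4 to 35950 in bone and from 23.6 to 49932 in osteoblasts, and 6 of the 7 had their 3 highest values in the same 3 libraries. Neutrophil markers (10 of 10 named) had the same order, with sums of 5.91 to 15230 in bone and 32.9 to 18496 in osteoblasts, as did all 4 named skeletal muscle markers, whose sums reached 1208 in bone and 599 in osteoblasts. All 6 B cell markers shared that order, with sums of at most 115 in bone and 129 in osteoblasts, while all 5 named macrophage markers had their 3 lowest values in those libraries (sums of 393 to 2636 in bone and 404 to 1498 in osteoblasts). Osteoblast markers (7 named) summed to between 5258 and 8488 FPKM in bone and between 5566 and 7973 in osteoblasts, and osteocyte markers (5 named) to between 52.9 and 120 in bone and between 50.5 and 139 in osteoblasts. These sums were carried by few genes and held opposite moves. *Sost*, the osteocyte gene of sclerostin, was at 0.176, 0.066 and 18.8 FPKM in bone and at 0.198, 22.7 and 15.8 FPKM in osteoblasts, so it was below 1 FPKM in the 3 libraries with little *Hbb-bt*, of which 2 are labelled bone. *Ibsp*, the bone sialoprotein gene of osteoblasts, was at 1278, 986 and 43.1 FPKM in bone and at 1004, 78.2 and 91.3 FPKM in osteoblasts. Both split the libraries as *Hbb-bt* did, in opposite directions, and both were named after their values were seen. Neither stands for its list. The osteocyte marker *Dmp1* went against *Sost*, at 104, 50.0 and 24.2 FPKM in bone and at 127, 22.5 and 22.9 FPKM in osteoblasts. The osteoblast marker *Bglap2* went against *Ibsp*, at 264, 383 and 1959 FPKM in bone and at 513, 1889 and 1641 FPKM in osteoblasts. In these bulk samples fewer cells of a type and less RNA per cell cannot be told apart, and the part of other cell types in the results was not tested. Aligned read pairs, estimated from coverage, ran from 13566667 to 22586667 per library, and unnamed features held 71.5% of FPKM in bone replicate 2 and 65.0% in osteoblasts replicate 1 against 27.4% to 30.7% in the other libraries. Nothing was averaged or tested over the libraries above 1000 FPKM, since that split was read from the data.

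*Slc4a1* encodes band 3, the chloride and bicarbonate exchanger that is the most abundant protein of the red cell membrane. It lies on Chr. 11 from 102348824 to 102366203 on the minus strand (GRCm38). Its level was 0.0262, 0 and 714 FPKM in bone replicates 1, 2 and 3 and 0, 663 and 619 FPKM in osteoblasts replicates 1, 2 and 3. The libraries split into 3 high and 3 near 0, with a high library under each label, so the labels overlapped. In the low libraries its level lay at or below the 0.0292 to 0.0487 FPKM that 3 read pairs would give on its transcript of 4545 bp. In each of the 3 high libraries the FPKM of *Slc4a1* was above that of 99.3% of the genes with at least 1 FPKM, and it held 64.0%, 64.0% and 61.1% of the members' summed FPKM.

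*Epb42* encodes a relative of the transglutaminases without enzyme activity, which binds band 3 and ankyrin. It is on Chr. 2 from 121017891 to 121037087 on the minus strand. Its FPKM was listed at 0, 0 and 26.7 in bone and at 0, 37.2 and 34.3 in osteoblasts. Only the 3 libraries with abundant *Hbb-bt* held a value above 0, and bone replicate 3 was the lowest of them.

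*Ank1* encodes ankyrin, which ties band 3 to spectrin. It covers Chr. 8 from 22974844 to 23150497 on the plus strand, a locus with several transcripts and an alternative muscle promoter. Its FPKM was 0.497, 0.227 and 61.7 in bone and 0.287, 52.9 and 59.7 in osteoblasts. The same 3 libraries were high, and the labels overlapped. The low values compare with 0.405 to 0.674 FPKM for 3 read pairs on the shortest of its 18 annotated transcripts and with 0.0159 to 0.0264 FPKM on the longest. The skeletal muscle gene *Acta1* was at 558, 109 and 246 FPKM in bone replicate 3 and osteoblasts replicates 2 and 3, the same order as *Ank1*, and its part in that order was not tested. *Mir486*, *Mir3107* and *Gm51563* lie in the *Ank1* locus and may share its reads.

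*Sptb* encodes the beta spectrin of red cells, the chain that binds ankyrin. It lies on Chr. 12 from 76580488 to 76710547 on the minus strand. Its FPKM was 0.727, 0.430 and 78.5 in bone, a mean of 26.6 ± 45.0 (SD, n = 3), and 0.527, 49.1 and 79.6 in osteoblasts, a mean of 43.1 ± 39.9 (SD, n = 3). Each SD was close to or larger than its mean. By FPKM, *Sptb* was the member with the highest level in each of the 3 low libraries, and in osteoblasts replicate 2 it was lower than in the other high libraries. By coverage scaled to depth, described below, *Rhd* was above *Sptb* in bone replicate 1 (0.171 against 0.142) and bone replicate 2 (0.104 against 0.0777).

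*Rhd* encodes the mouse Rh protein, a membrane protein of the ammonium transporter family. It is on Chr. 4 from 134864536 to 134896172 on the plus strand. Its FPKM was 0.180, 0.109 and 196 in bone and 0, 191 and 173 in osteoblasts. *Kel* encodes the Kell blood group protein, a membrane endopeptidase of the family of neprilysin and *Phex*. It is on Chr. 6 from 41686330 to 41704339 on the minus strand. Its FPKM was 0, 0.0194 and 38.3 in bone and 0, 42.8 and 47.8 in osteoblasts. Both genes were again high in bone replicate 3 and osteoblasts replicates 2 and 3 and below 1 FPKM elsewhere, so the labels overlapped. On the 1514 bp transcript of *Rhd*, 3 read pairs would give 0.0877 to 0.146 FPKM.

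*Epb41*, whose product joins spectrin to actin, and *Rhag*, for the Rh associated glycoprotein that carries *Rhd*'s product to the membrane, had no row of their own name. RefSeq places *Epb41* at 131923413 to 132075346 of Chr. 4 (minus strand) and *Rhag* at 40811099 to 40844094 of Chr. 17 (plus strand). Unnamed features cover both loci, and that at *Epb41* also spans other genes, so neither gene entered the counts or tests.

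In sum the 6 named members came to 1.43, 0.786 and 1116 FPKM in bone and to 0.814, 1036 and 1013 FPKM in osteoblasts. In the libraries without abundant *Hbb-bt*, 2 members were listed at 0 in bone replicate 1, 2 in bone replicate 2 and 4 in osteoblasts replicate 1, while none was at 0 in the others. All 6 members had their 3 highest values in the libraries with *Hbb-bt* above 1000 FPKM, an order that 38.4% of the 12112 genes tested shared. For all 6 the lowest of those 3 values was at least 10 times the highest of the other 3, which held for 6.06% of the genes tested. This factor was chosen after the values were seen. No member was above 1 FPKM in the other libraries. All 6 therefore reached the mean of 1 FPKM needed for testing only through the libraries where they were high. Such a filter favours large ratios, so the shares of all genes do not measure an enrichment. The plot of FPKM by gene and library shows this split.

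**Figure D1:**
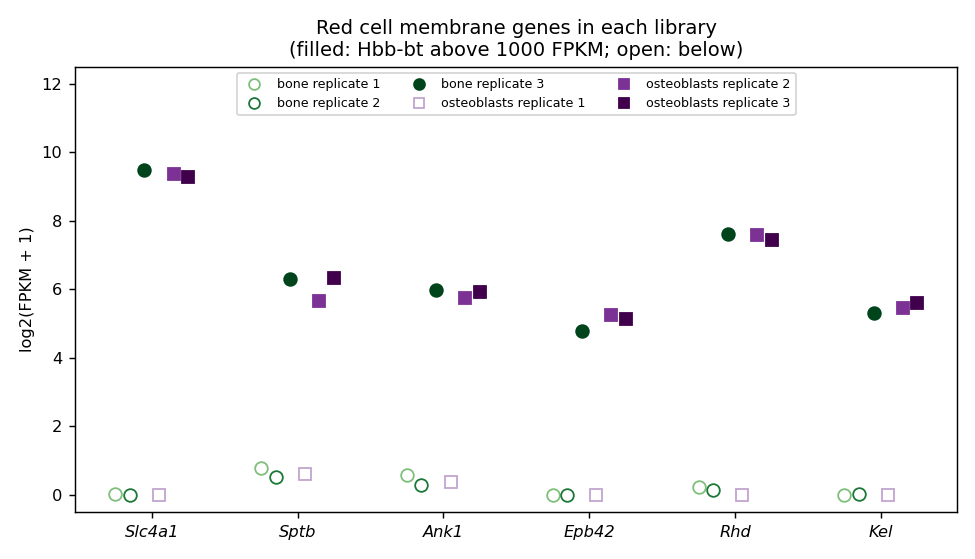
Level of each named member, as log2(FPKM + 1), in every library; circles are bone and squares osteoblasts, filled where *Hbb-bt* was above 1000 FPKM. Bone replicate 3 and osteoblasts replicates 2 and 3 lie far above the other libraries for all 6 genes.

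Promoters of the members were read from RefSeq (GRCm38.p6) as the 250 bases upstream of the start, in the direction of the gene. Of the 8 members, 6 had an entry, in 8 windows, and *Slc4a1* and *Ank1* had none. They are shown because erythroid genes are commonly bound by GATA1 and KLF1, factors whose sites read as GATA and CACCC motifs. The GATA motifs searched on both strands were AGATAA with its variant TGATAA, and AGATAG with its variant TGATAG. Of the 8 windows, 5 held at least 1 of them, against 26.5% of 32851 promoters in the table (AGATAA in 9.99% of them, TGATAA in 7.94%, AGATAG in 7.71% and TGATAG in 6.35%), and 4 held CACCC, against 52.0%. The windows of *Kel* (chr6:41704326-41704575, minus strand), *Rhd* (chr4:134864286-134864535, plus strand) and *Rhag* (chr17:40810899-40811148, plus strand) are the 3 in which a GATA motif lay within 56 bases of the start, and capitals mark it.
Kel: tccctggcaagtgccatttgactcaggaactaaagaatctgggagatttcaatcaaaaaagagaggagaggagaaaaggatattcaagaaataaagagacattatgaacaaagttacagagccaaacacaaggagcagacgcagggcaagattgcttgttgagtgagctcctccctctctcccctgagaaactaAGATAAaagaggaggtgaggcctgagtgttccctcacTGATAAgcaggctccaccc
Rhd: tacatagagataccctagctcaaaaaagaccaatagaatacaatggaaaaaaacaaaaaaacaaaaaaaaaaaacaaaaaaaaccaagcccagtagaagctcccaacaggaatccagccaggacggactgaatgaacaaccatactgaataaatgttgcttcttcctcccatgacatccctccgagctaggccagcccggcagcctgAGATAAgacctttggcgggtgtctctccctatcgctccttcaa
Rhag: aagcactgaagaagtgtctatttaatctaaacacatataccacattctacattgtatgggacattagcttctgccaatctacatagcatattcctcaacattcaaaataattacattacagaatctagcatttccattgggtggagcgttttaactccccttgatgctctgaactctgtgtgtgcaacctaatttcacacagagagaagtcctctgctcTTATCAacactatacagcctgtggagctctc
*Kel* held 2 matches, 56 and 19 bases before the start, and *Rhd* held 1 match 43 bases before it. The letters of *Rhag*, TTATCA, are TGATAA on the other strand and began 31 bases before the start. *Epb42* held a match 226 bases before the start, 1 of 3 windows of *Epb41* held one 184 bases before it, and *Sptb* held none. A match describes these letters and is not a bound site, and no match says only that the letters are not in the window.

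Osteoblasts were compared with bone to ask whether these genes differed between the labels. The 6 members' differences of mean log2(FPKM + 1), osteoblasts minus bone, were all positive, with a median of 1.89 against 0.12 over the 12112 genes tested. Of those 12112 genes, 7586 had a positive difference. The difference was 3.04 ± 2.99 (limma's moderated SE) for *Slc4a1*, 2.34 ± 2.38 for *Rhd*, 1.91 ± 1.74 for *Kel* and 1.87 ± 1.62 for *Epb42*, with n = 3 libraries per label. It was 1.73 ± 1.77 for *Ank1* and 1.66 ± 1.79 for *Sptb*. The 6 errors were as large as or close to their differences. In these errors limma draws each gene's spread towards that of the other genes, so they understate the members' own spread. The SD of log2(FPKM + 1) within a label ran from 2.77 for *Epb42* to 5.46 for *Slc4a1* in bone. In osteoblasts it ran from 3.00 for *Epb42* to 5.38 for *Slc4a1*. Under both labels each member's SD was larger than its difference. With limma the adjusted p was 0.999 for each of the 6, and 0.0% of genes tested passed in either direction. The unadjusted limma p of the members ran from 0.278 to 0.377, and 0.14% of the genes tested were under 0.05. In exact permutation tests, two-sided, p was 1 for *Slc4a1*, 1 for *Rhd*, 0.8 for *Ank1*, 0.7 for *Sptb*, 0.4 for *Epb42* and 0.4 for *Kel*, where 3 libraries against 3 cannot go below 0.1. The labels overlapped for all 6 members, whereas 0.479% of genes tested were higher in every osteoblast library than in every bone library, and 0.438% lower. *Hbb-bt* was above 1000 FPKM in 1 bone and 2 osteoblast libraries, and its part in the sign of the differences was not tested. Without osteoblasts replicate 1 all 6 members passed limma, and without bone replicate 3 *Slc4a1* and *Rhd* did, in a table where 300 and 77 genes passed. These passes rest on the moderated errors and not on the members' own spread alone. The exact permutation p was 0.2 to 0.4 for the 6 members without osteoblasts replicate 1. Without bone replicate 3 the exact permutation p was 0.4 for *Slc4a1* and for *Rhd*. With so few libraries the exact test could not pass. The plot of differences without single libraries gives the members' values.

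**Figure D2:**
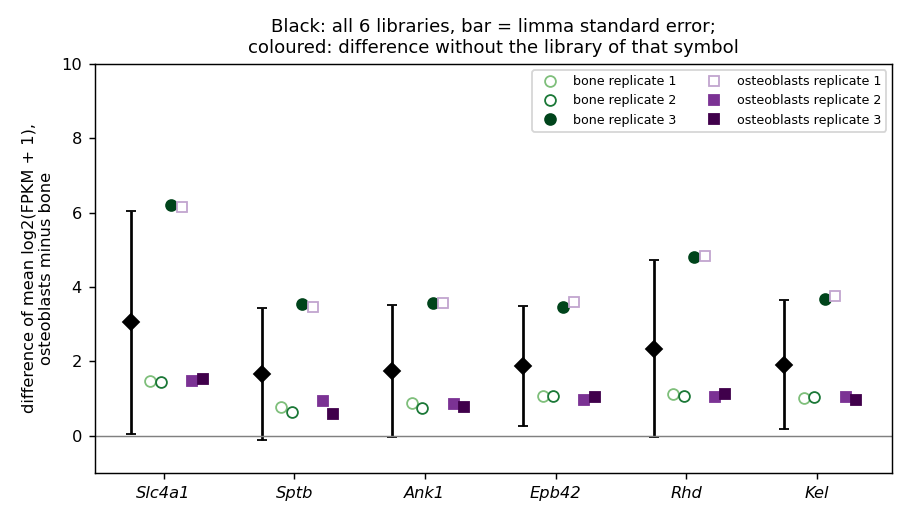
Difference of mean log2(FPKM + 1), osteoblasts minus bone, for each member: black diamonds with limma standard errors use all 6 libraries, coloured symbols leave out the named library. For *Slc4a1* the value ran from 1.46 to 6.20 as single libraries were left out.

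Levels within the 3 high libraries were set in order per length. By FPKM, *Slc4a1* came first and *Rhd* next in each of them, with *Rhd* at 27.5%, 28.7% and 27.9% of the FPKM of *Slc4a1* in bone replicate 3 and osteoblasts replicates 2 and 3. *Sptb* stood at 11.0%, 7.41% and 12.9% of it, *Ank1* at 8.64%, 7.98% and 9.64%, *Kel* at 5.37%, 6.45% and 7.72%, and *Epb42* at 3.74%, 5.60% and 5.54%. *Sptb* was above *Ank1* in bone replicate 3 and osteoblasts replicate 3, and below it in osteoblasts replicate 2. *Slc4a1* and *Rhd* had a highest to lowest ratio of FPKM over the 3 libraries of 1.15 and 1.14, against a median of 1.34 over 11104 genes. The ratio was 1.17 for *Ank1*, 1.25 for *Kel*, 1.39 for *Epb42* and 1.62 for *Sptb*. By FPKM, *Sptb* and *Ank1* were the pair whose order changed between libraries.

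The order also depended on the scale. FPKM as deposited adds the transcripts of a locus, while coverage averages reads over its bases. With coverage divided by the library's aligned bases, *Slc4a1* was at 655, 610 and 566 and *Rhd* at 186, 180 and 164 in the same 3 libraries, in FPKM units. FPKM was then 1.09, 1.09 and 1.09 times that coverage for *Slc4a1*, but 6.83, 6.48 and 6.84 times it for *Ank1* and 4.82, 4.55 and 4.62 times it for *Kel*. *Epb42*, last of the 6 by FPKM, came just after *Sptb* by coverage, at 15.4, 16.0 and 19.6 against 37.2, 30.2 and 36.7 for *Sptb*. The ratio of *Sptb* to *Ank1* was 1.27, 0.929 and 1.33 by FPKM and 4.11, 3.69 and 4.21 by coverage. By coverage it was *Ank1* and *Kel* that changed places, with *Ank1* above *Kel* in bone replicate 3 alone. The highest to lowest ratio by coverage was 1.10 for *Ank1*, 1.14 for *Rhd*, 1.16 for *Slc4a1* and 1.23 for *Sptb*, so which member was steadiest also turned on the scale. *Slc4a1* and *Rhd* held the first 2 places on both scales, and the order of the other 4 members differed between the scales.

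**Figure D3:**
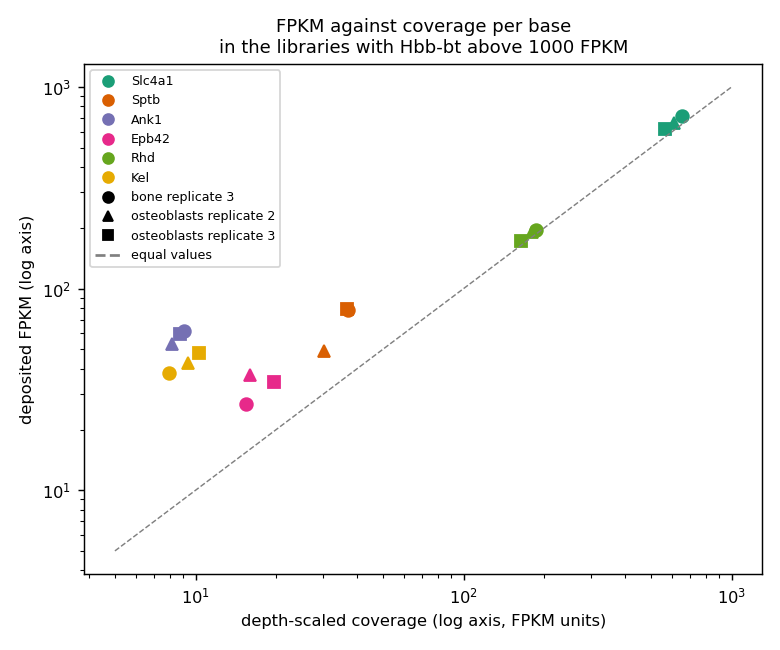
Deposited FPKM against depth-scaled coverage per base, both on log axes, for the 6 members in the 3 libraries with *Hbb-bt* above 1000 FPKM; symbols mark the library and the dashed line equal values. *Slc4a1* and *Rhd* lie near the line and *Ank1* and *Kel* far above it.

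Each member has relatives that are not particular to red cells, and 7 pairs were compared within each library. *Slc4a2*, the anion exchanger of most epithelia and of osteoclasts, was at 31.9, 12.7 and 24.1 FPKM in bone and at 19.1, 20.7 and 20.7 FPKM in osteoblasts. *Sptbn1*, the beta spectrin of most other cells, was at 58.3, 24.9 and 21.9 in bone and at 29.5, 21.8 and 28.3 in osteoblasts. Neither had its 3 highest values in the libraries with abundant *Hbb-bt*. *Slc4a1* was 29.6, 32.1 and 29.9 times *Slc4a2* in bone replicate 3 and osteoblasts replicates 2 and 3, and *Sptb* was 3.59, 2.26 and 2.81 times *Sptbn1*. *Ank1* was 17.5, 49.4 and 18.5 times *Ank3*, whose FPKM was 1.07 in osteoblasts replicate 2. *Epb42* stayed near *Tgm2*, the tissue transglutaminase, at 0.684, 0.963 and 1.03 times its level. *Kel* was 8.32, 6.88 and 7.12 times *Phex*, an osteocyte gene of its own family, and 3.29, 4.27 and 4.60 times *Ece1*, which was lowest in these 3 libraries (11.6, 10.0 and 10.4 FPKM) and at 20.5 to 47.7 in the others. All these ratios are of FPKM, and the pairs were not compared by coverage. In these 3 libraries FPKM was 6.48 to 6.84 times coverage for *Ank1* and 4.55 to 4.82 times for *Kel*, so their ratios may turn on the scale.

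Between labels the log2 ratio of a member to its relative (0.1 FPKM added to both) was compared as osteoblasts minus bone. The difference was positive for every pair, *Rhd* to *Rhcg* included. With 3 libraries against 3 the exact p could not go below 0.1, so no pair could pass. Osteoblasts minus bone, it was 4.14 for *Slc4a1* to *Slc4a2* (exact permutation p = 0.5), 3.59 for *Kel* to *Ece1* (exact permutation p = 0.5) and 3.08 for *Epb42* to *Tgm2* (exact permutation p = 0.3). It was 3.02 for *Ank1* to *Ank3* (exact permutation p = 0.2), 2.83 for *Kel* to *Phex* (exact permutation p = 0.7) and 2.32 for *Sptb* to *Sptbn1* (exact permutation p = 0.8). *Rhcg* was listed at 0 in 5 libraries and at 0.694 FPKM in osteoblasts replicate 3, so the ratio of *Rhd* to it was set by the value added, with a difference of 1.73 when 0.1 was added and of 0.025 when 0.01 was. The 24 genes of a wider list of paralogues all had a name, 19 were tested, none passed, and 3 were higher in osteoblasts, with a median of -0.22. Over all 12112 genes tested, 7586 were higher in osteoblasts, with a median of 0.12.

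**Figure D4:**
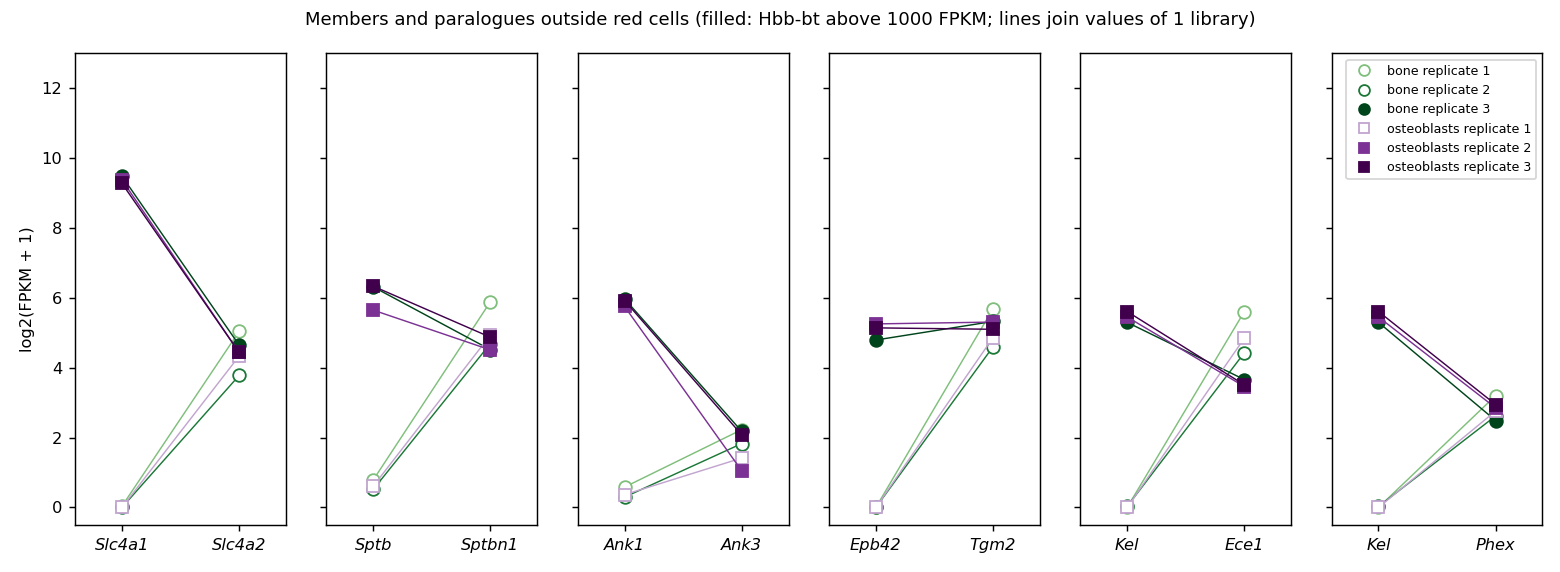
log2(FPKM + 1) of 5 members beside relatives of the same family, in each library; lines join values of 1 library and filled symbols mark *Hbb-bt* above 1000 FPKM. *Slc4a1* passes from near 0 to far above *Slc4a2*, whereas *Epb42* reaches the level of *Tgm2*.

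Of 28 other genes of the red cell membrane, 24 had a named feature. All 24 were tested between labels, none passed limma, and 20 were higher in osteoblasts, with a median difference of 0.75. Over all 12112 genes tested, 7586 were higher in osteoblasts, with a median of 0.12. For 19 of the 24 the 3 highest values were in the libraries with abundant *Hbb-bt*, and for *Slc29a1* and *Piezo1* the 3 lowest were, an order shared by 38.4% and 16.9% of all genes tested. *Add2*, for the beta subunit of the adducin that caps actin at spectrin junctions, was at 0.022, 0 and 23.9 FPKM in bone and at 0.015, 21.0 and 21.4 in osteoblasts. *Tmod1*, a cap of the other actin end, was at 1.52, 0.731 and 22.0 in bone and at 1.42, 16.1 and 20.9 in osteoblasts, so it was present outside the high libraries too. *Xk*, which partners Kell in the membrane, was at 0.274, 0.318 and 1.66 in bone and at 0.167, 3.11 and 2.99 in osteoblasts.

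**Figure D5:**
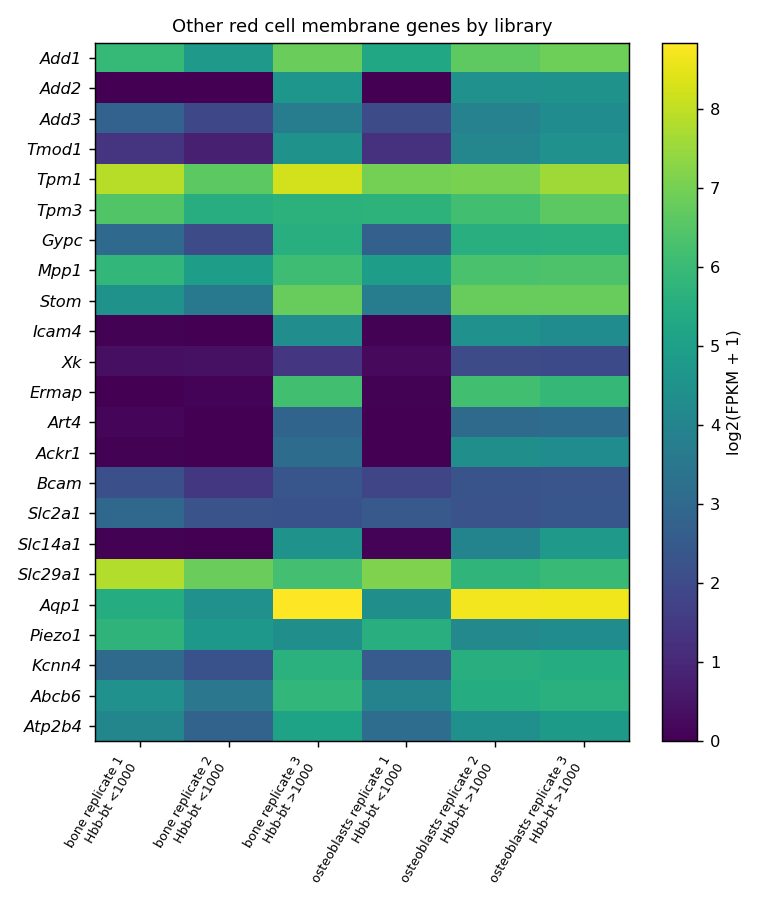
log2(FPKM + 1) of other red cell membrane genes with a named feature, 1 row a gene (1 of the 24 is not shown) and 1 column a library, with the column label giving *Hbb-bt* above or below 1000 FPKM. *Add2* and *Ermap* are dark in 3 columns and light in bone replicate 3 and osteoblasts replicates 2 and 3, whereas *Slc29a1* is lightest where *Hbb-bt* was low.

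Genes were ranked by how closely their centred log2(FPKM + 1) followed the mean of the members over the 6 libraries. The 5 closest were *Ear6* (root mean square difference 0.020), *Plac8* (0.11), *Prg3* (0.12), *Nfe2* (0.13) and *Fcnb* (0.16), of which *Nfe2* encodes an erythroid and megakaryocyte factor, *Prg3* and *Ear6* proteins of granulocytes. The nearest single gene was *Alas2*, the first enzyme of haem synthesis in red cells, for *Slc4a1* (0.17), *Vwf* for *Sptb* (0.12) and *Ank1* (0.11), *Alox12* for *Epb42* (0.13), *Prtn3* for *Rhd* (0.21) and *Mcemp1* for *Kel* (0.081). Of all these near genes only *Alas2* and *Nfe2* are on the erythroid marker list, and the others are on no marker list. With 6 libraries that fall 3 high and 3 low, this likeness mainly describes that split.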

How the data were processed

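RNA-seq was read from 1 table per library, which the authors made by aligning 75 bp paired reads to GRCm38 with HISAT2 2.0.5 and estimating features with StringTie 1.3.3, per the submitters' processing notes. In these tables the authors give FPKM, scaled to the aligned reads. The deposited TPM are the same estimates brought to a common sum. Coverage, as deposited, is the average read depth over a feature's bases. No read counts were used, so depth was estimated from the ratio of coverage to FPKM, and floors, set from transcript lengths of GENCODE vM1 (NCBIM37), cover counting error only. The library kit does not mark strand, so reads of overlapping genes cannot be told apart by strand.

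FPKM were summed by name and tested as log2(FPKM + 1) with limma 3.58.1 in R 4.3.3 (trend, Benjamini-Hochberg, 0.05) on genes with a mean of at least 1 FPKM, plus exact permutation tests, with Python 3.11.15. The p-values measure only the spread between these libraries, which the labels number as replicates. In a simulation with this layout (12112 genes, SD 0.3), limma recovered 151 of 200 genes changed by 1, with 10 other calls. It recovered 200 of 200 changed by 2, with 12 others. Every simulated gene had the same spread, and no libraries were split. In these data the median of limma's moderated standard error was 0.51 over all genes tested and 1.78 over the members. The simulated recovery therefore does not hold for these data. Members, lists and tests were chosen with earlier results of these data known. The genes named are the members, fixed paralogues and partners, marker lists, and the genes nearest the members over the 6 libraries. Alternatives were another pseudocount (0.1 or 0.01), TPM, other filters and scalings, the replicate number as a block, another *Hbb-bt* limit, and leaving out each library. Depth-scaled coverage was added after seeing the data. Some genes of the wider list are not reported by name here.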

Additional observations from a re-analysis of the deposited data

Results flagged for a closer look

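Unnamed features at the loci of the 2 members without a name held signal, and the comparisons did not use these features. The feature at *Epb41*, which also spans *Srsf4* and other genes, was at 121.616 FPKM in bone replicate 3, 132.758 in osteoblasts replicate 2 and 138.935 in osteoblasts replicate 3, against 6.12 to 11.7 in the other libraries. At *Rhag*, where the feature overlaps no other RefSeq gene, it was at 10.4 FPKM in bone replicate 3, 23.0 in osteoblasts replicate 2 and 18.6 in osteoblasts replicate 3, and listed at 0 in the other libraries.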

How the results depend on the processing

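The number of genes past the threshold was 0 with all libraries, 1 without the filter on low values, 49 with the replicate number as a block (46 higher in osteoblasts), and 0 to 300 when single libraries were left out, with 77 without bone replicate 3 and 300 without osteoblasts replicate 1. The cause was not tested. The log2 ratio of *Rhd* to *Rhcg* ran from -0.61 (without osteoblasts replicate 2) to 4.95 as single libraries were left out, against 1.73 with all. Members past the limma threshold were 2 with the block (*Slc4a1* and *Rhd*), 2 without bone replicate 3 and 6 without osteoblasts replicate 1. Limma moderates each gene's spread with that of the other genes, so these passes do not rest on the members' own spread alone. By number, *Slc4a1* and *Rhd* differed widely only at replicate 2. There *Slc4a1* was at 0 FPKM in bone and 663 in osteoblasts, and *Rhd* at 0.109 and 191. Both labels were low at replicate 1 and high at replicate 3. Same-numbered deviations correlated at 0.84, -0.75 and 0.83, and bone replicate 2 correlated best with osteoblasts replicate 1 (0.80). Libraries alike in *Hbb-bt* correlated positively and the others negatively. These correlations therefore cannot show whether libraries of the same number share a mouse. The exact tests, with a smallest p of 0.1 to 0.25, could not pass under any setting, so only directions are compared. The difference of *Slc4a1* ran from 1.46 to 6.20 over the alternatives and kept its direction, as did the other members. Each member was high in 1 bone and 2 osteoblast libraries and below 1 FPKM elsewhere. That split largely fixed the direction beforehand, so its being kept adds no support. The depth, estimated and not counted, limits values under about 0.133 to 0.221 FPKM on 1 kb.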

Other observations

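*Dmtn*, the gene of the actin-bundling protein dematin, had no named feature. The unnamed feature there was at 58.1 FPKM in bone replicate 3 and at 36.5 and 49.5 in osteoblasts replicates 2 and 3, against 0.152 to 0.455 in the other libraries, and it spans 5 further genes. Inside *Slc4a1*, 2 unnamed features on the plus strand were listed above 0 in these libraries alone. In bone replicate 3 and osteoblasts replicates 2 and 3, the FPKM was 37.6, 26.5 and 24.9 for one and 7.73, 5.90 and 8.55 for the other. The kit does not mark strand, so their reads cannot be told apart from those of *Slc4a1*.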
